A study of Mus musculus with 2 samples.

Results

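Il17a producers without Il2 are CD8 T cells that carried much interleukin-17A mRNA and little interferon-γ and interleukin-2 mRNA after restimulation. They were selected on those measured values: a kept cell was a member when, of every 10000 of its gene transcripts, at least 10 were Il17a, fewer than 10 were Ifng and fewer than 10 were Il2. The rule found 259 cells among the 1727 cells kept in both libraries, 43 of 709 in the deficient-labelled library and 216 of 1018 in the wild-type-labelled (WT-labelled) library. A transcript is counted here by its unique molecular identifier (UMI), a random tag put on each captured mRNA. The study put CD8 T cells of mouse mesenteric lymph nodes (strain C57/B6N) into culture with a cytokine and antibody kit that drives T cells toward interleukin-17 production, giving Tc17 cells, and restimulated them for 3 hours with 100 ng/ml PMA and 10 μg/ml ionomycin before single-cell sequencing. The deficient-labelled library came from mice with floxed Nfatc1 and Cd4-Cre, which acts in T cells of the CD4 and CD8 lineages, and the WT-labelled library from wild-type mice. The number of mice behind each library, their age and sex, and whether animals were pooled were not stated in the labels. Each genotype had 1 library, so no difference has a replicate check, no test was run, and each interval covers counting error only.

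Tc17 cells are the CD8 counterpart of Th17 cells: they make interleukin-17A and interleukin-17F, which act on epithelial and stromal cells to draw in neutrophils, and they usually carry less cytotoxic machinery than other effector CD8 T cells. Interleukin-2 is the growth factor that activated T cells make early after antigen receptor signals, and its gene needs NFAT, AP-1 and NF-κB factors together. PMA activates protein kinase C and ionomycin lets calcium in, which together replace the receptor signal and bring these factors to the nucleus.

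Member cells held a median of 20104 UMIs and 4404 genes in the deficient-labelled library and 22788 UMIs and 4314 genes in the WT-labelled library, against 21453 UMIs and 3975 genes and 20377 UMIs and 3831 genes in the other kept cells. Summed over members, the libraries held 1158246 and 6652551 UMIs, so 1 UMI was worth 0.863 and 0.150 counts per 1000000 (CPM), and a gene with no UMI could still stand at up to 2.59 and 0.451 CPM (3 counts). A doublet caller marked 6 and 5 kept cells, 0 of them members, and the libraries shared 0 barcodes. Nfatc1 ran against the genotype label: in member cells it stood at 130.4 CPM in the deficient-labelled and 24.2 CPM in the WT-labelled library, 5.39-fold higher (95% counting interval 4.29 to 6.77). The kit reads the 3′ ends of mRNA, which may lie outside the deleted part, so these counts check neither the deletion nor the labels. An exchange of the labels was not tested and would turn every direction between the libraries, which are called by their labels throughout.

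The cells made up a smaller share of the deficient-labelled library. There, 43 of 709 cells met the rule (6.06%, exact binomial 95% interval 4.42 to 8.08), against 216 of 1018 (21.2%, 18.7 to 23.9) in the WT-labelled library. The libraries differed most at the step on Il17a. Il17a reached 10 per 10000 in 24.8% of deficient-labelled cells (21.7 to 28.2) and in 62.0% of WT-labelled cells (58.9 to 65.0). Of those, 78.4% (71.6 to 84.2) and 93.0% (90.8 to 94.9) had Ifng under 10. At the last step, 43 of 138 deficient-labelled cells (31.2%, 23.6 to 39.6) and 216 of 587 WT-labelled cells (36.8%, 32.9 to 40.8) had Il2 under 10, with overlapping intervals. The cells on the other side of that step, Il17a and Il2 co-producers, numbered 95 and 371.

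**Figure D1:**
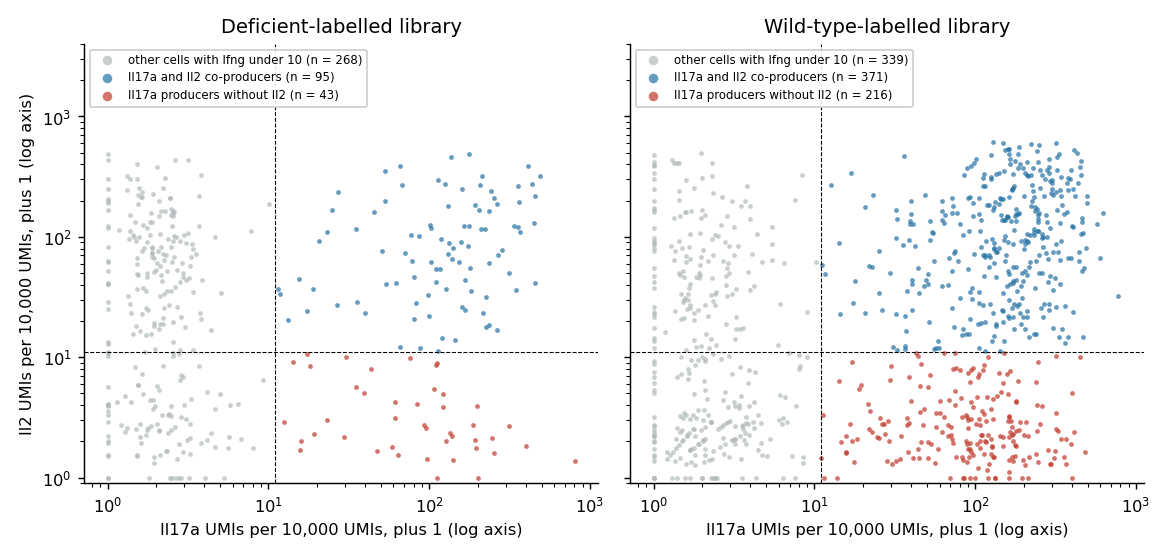
Each point is 1 kept cell with Ifng under 10 per 10,000 UMIs, with Il17a on the horizontal and Il2 on the vertical axis, both per 10,000 UMIs plus 1 on log axes. Dashed lines mark the limits of 10; the 43 members of the deficient-labelled library (left) and the 216 of the WT-labelled library (right) fill the lower right field.

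The rule's own genes are given as a description. Among members, Il17a had a median of 94.3 per 10000 in deficient-labelled cells (lowest 11.4, highest 804) and 97.7 in WT-labelled cells (lowest 10.04, highest 484). Co-producers held more, with medians of 133 and 163. Il2 in members had medians of 1.70 and 1.39 per 10000, and Ifng of 0.321 and 0. In cells that lacked Il17a, Il17f, Ifng and Il2 at the same limits, the Il2 medians were 1.64 and 1.43, both sets being held under 10 by their definition. Some members sat near a limit. Between 10 and 20 per 10000 of Il17a there were 7 deficient-labelled and 16 WT-labelled members, and 4 and 17 cells lay just outside, between 5 and 10. For Il2, 8 and 33 members lay between 5 and 10, and 10 and 40 co-producers between 10 and 20. Those members had 144 and 158 CPM of Tnf, against 290.4 and 260 CPM in the co-producers just across. Ccl4 was mixed there. It stood at 12477 CPM in those deficient-labelled members against 8746 CPM across the limit, and at 2976 against 4634 CPM in the WT-labelled library.

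Of the genes of the rule, the windows upstream of Il17a and Il2 are shown, and that of Ifng is not. They were picked because they differ in the letters that NFAT and AP-1 factors are known to read. The difference between them therefore follows from the choice. These are the 250 bases before the RefSeq gene start on the GRCm38.p6 build, Il17a at chr1:20730655-20730904 on the plus strand and Il2 at chr3:37125955-37126204 on the minus strand. Capitals mark matches on either strand to GGAAA, the core of NFAT sites, and to TGANTCA, the AP-1 site, which do not overlap here.
Il17a: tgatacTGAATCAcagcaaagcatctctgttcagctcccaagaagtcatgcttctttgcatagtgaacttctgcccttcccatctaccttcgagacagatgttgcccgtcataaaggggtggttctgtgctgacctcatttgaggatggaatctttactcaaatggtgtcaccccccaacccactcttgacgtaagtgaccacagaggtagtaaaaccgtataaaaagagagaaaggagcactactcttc
Il2: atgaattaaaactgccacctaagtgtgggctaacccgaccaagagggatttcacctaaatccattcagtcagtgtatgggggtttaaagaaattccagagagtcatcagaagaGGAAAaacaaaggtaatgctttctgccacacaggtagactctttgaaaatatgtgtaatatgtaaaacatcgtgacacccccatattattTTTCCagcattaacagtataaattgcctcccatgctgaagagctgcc
The Il2 window holds 2 matches to GGAAA and 0 to TGANTCA, and the Il17a window 0 and 1. Of all 27025 windows in the table, 55.6% hold GGAAA and 6.87% hold TGANTCA, so the first is a common word and the second an uncommon one. A match is a description of letters and not a binding site.

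The cells were CD8 T cells by their markers. The list of 8 markers holds Cd8a, Cd8b1 and genes of the T-cell receptor complex, which CD4 T cells also express. At least 3 of the 8 had a UMI in 43 of 43 deficient-labelled and 213 of 216 WT-labelled members. Cd8b1, the CD8 beta chain, had one in 41 and 210 members. A Cd4 UMI was found in 0 of 43 and 1 of 216 members, a UMI of Trdc, the gamma-delta receptor constant region, in 0 and 1, and none had one of Ncr1, a marker of natural killer cells. Il17f, the second gene named as a marker of these cells and not used by the rule, had a median of 63.9 per 10000 in deficient-labelled and 82.7 in WT-labelled members. It reached 10 per 10000 in 34 of 43 (79.1%, 64.0 to 89.96) and 193 of 216 (89.4%, 84.5 to 93.1) members. B-cell markers, at least 3 of 11, were found in 1 of 43 deficient-labelled and 23 of 216 WT-labelled members, against 12 of 666 and 22 of 802 other kept cells, with list sums of 94.97 and 123 CPM against 71.2 and 76.1 CPM and with Ms4a1 and Pax5 at 0 in members. Of that list, Cd74 stood at 60.4 against 30.9 CPM and 55.5 against 28.8 CPM, and Ebf1 at 25.9 against 6.03 CPM and 30.8 against 24.3 CPM, and both were at least 2-fold higher in both libraries among cells called G1. At least 3 of 12 myeloid markers were found in 3 and 16 members against 28 and 27 other cells, with Lyz2 at 0 in members. At least 3 of 11 dendritic-cell markers were found in 2 and 57 members against 31 and 114 other cells, a list that holds Batf3 and Ccr7, with Clec9a, Siglech and Itgax at 0. Natural killer markers summed to 1.73 and 4.66 CPM in members, and gamma-delta markers to 24.2 and 1.20 CPM, the first mostly Zbtb16 of 1 cell. The part of such cells in the results below was not tested.

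Compared with all other kept cells, members had less mRNA of 5 chemokine genes and of Gzmb and more of 22 genes of mitosis. Of 5421 genes that reached 20 CPM in at least 1 of the sums of each library, 105 were at least 2-fold higher in members in both libraries (1.94%) and 22 were at least 2-fold lower in both (0.406%), Ifng and Il2 of the rule included. A further 2 genes (0.0369%) passed in opposite directions. The median log2 ratio over all tested genes was 0.10 in the deficient-labelled and 0.05 in the WT-labelled library. The split leaned on scaling: with TMM factors, which shift those medians to -0.19 and -0.10, 63 genes were higher and 39 lower, and with cells called G1 only, 23 were higher and 15 lower. The other cells include every Ifng producer, so the comparison also holds the difference between Il17a and Ifng producers. Fewer cells with a transcript and less transcript per cell cannot be told apart in such sums. Log2 ratios carry a pseudocount of 1 CPM, and folds are plain CPM ratios.

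**Figure D2:**
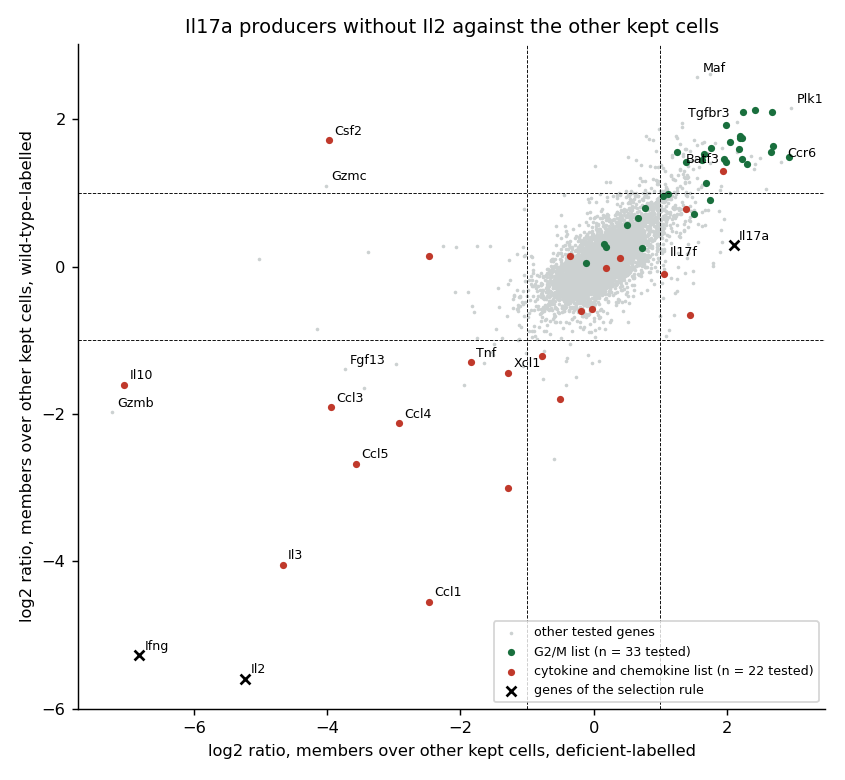
Each point is 1 of 5421 tested genes, placed by its log2 ratio of members over other kept cells in the deficient-labelled (horizontal) and WT-labelled (vertical) library, with dashed lines at 2-fold. G2/M genes (green) gather at the upper right and chemokine and cytokine genes (red) at the lower left; the selection genes, marked by crosses, are a description only.

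Chemokine genes made up 5 of the lower genes. Ccl4, a chemokine that draws in immune cells, stood at 4996 CPM in deficient-labelled members against 37941 CPM in the other kept cells, and at 1868 CPM in WT-labelled members against 8143 CPM in the others. That is 7.59-fold lower (7.40 to 7.79) and 4.36-fold lower (4.28 to 4.44). Its neighbour Ccl3 was 15.4-fold lower (14.2 to 16.7) in deficient-labelled and 3.75-fold lower (3.58 to 3.94) in WT-labelled members. Xcl1, encoding lymphotactin, which attracts cross-presenting dendritic cells, was at 12434 against 30229 CPM and 2689 against 7285 CPM. Ccl5 was at 8.63 against 114 CPM and 6.31 against 45.6 CPM, and Ccl1 at 110.5 against 616 CPM and 2.71 against 85.7 CPM. Of 22 tested genes of the cytokine and chemokine list, 1 was higher and 9 lower in both libraries, with medians of -1.03 and -0.93. The list took 21374 CPM in deficient-labelled members against 80756 CPM in others, and 8202 against 19919 CPM in the WT-labelled library.

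The lower cytokine genes were Tnf, Il3, Il10 and the T-cell help gene Cd40lg, besides the 5 chemokine genes. Tnf, the early inflammatory cytokine, was at 170.1 against 613 CPM in the deficient-labelled and 157 against 388 CPM in the WT-labelled library, 3.60-fold lower (3.13 to 4.17) and 2.47-fold lower (2.31 to 2.64). Il10, the inhibitory cytokine, had 1 UMI in deficient-labelled members, 0.863 CPM against 246 CPM in others (285-fold lower, 51.2 to 11276), and 37.9 against 117 CPM in the WT-labelled library. Il3 had 1 and 2 UMIs in members, against 46.5 and 20.4 CPM in others. The 1 higher gene was Lta, encoding lymphotoxin alpha, a gene beside Tnf on chromosome 17. It was at 221 against 56.5 CPM and at 235 against 95.1 CPM, though 37.5% of its deficient-labelled member UMIs came from 1 cell. So 2 neighbours of the TNF family stood apart in opposite directions in both libraries.

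Of the cytotoxic genes, 3 were lower and most did not pass. Gzmb, encoding the protease granzyme B, had 5 UMIs in 43 deficient-labelled members, 4.32 CPM against 798 CPM in others, and 37.4 CPM against 150.2 CPM in the WT-labelled library, 185-fold lower (79.2 to 569) and 4.01-fold lower (3.52 to 4.59). At 5000 UMIs per cell a Gzmb UMI was found in 1 of 43 deficient-labelled members and 122 of 655 other cells, but in 14 of 212 WT-labelled members and 33 of 792 other cells (6.604%, 3.66 to 10.8, and 4.17%), with overlapping intervals. Unthinned, the shares were 11.6% of members against 26.6% of others and 13.9% against 11.6%. The lower WT-labelled level was thus not seen as a lower share of cells with a UMI. Serpinb9, the granzyme B inhibitor, was at 1.73 against 28.7 CPM (2 UMIs in members) and at 7.67 against 26.0 CPM. Of 16 tested genes of the type 1 and cytotoxic list, 0 were higher and 3 lower (Gzmb, Serpinb9 and Slamf7), with medians of -0.76 and -0.36. Tbx21, encoding T-bet, stood at 9.50 against 14.1 CPM and 24.95 against 37.1 CPM, less than 2-fold apart.

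Genes of mitosis were the largest higher group. Of 33 tested genes of the G2/M list (51 in all), 22 were higher in both libraries and 0 lower, with median log2 ratios of 1.76 and 1.46. Summed, the list took 4198 CPM in deficient-labelled members against 1490 CPM in others, and 3318 against 1501 CPM in the WT-labelled library. Plk1, a mitotic kinase outside the list, was at 30.2 against 2.99 CPM and 20.9 against 3.93 CPM, 10.1-fold (6.37 to 15.9) and 5.31-fold (3.96 to 7.19) higher. Ccnb2, a cyclin of mitosis, was 7.07-fold (5.22 to 9.50) and 4.69-fold (3.80 to 5.81) higher, and Birc5, which encodes survivin of the chromosomal passenger complex, stood at 117 against 23.8 CPM and 76.2 against 16.97 CPM. Cdca3, Nusap1, Cenpe, Cdk1, Cenpf and Ect2, other genes of spindle and division, were 3.49-fold to 6.09-fold higher in either library. In the S-phase list, 5 of 24 tested genes were higher and 0 lower (medians 0.42 and 0.96), among them Rrm2, a subunit of ribonucleotide reductase, at 61.3 against 17.6 CPM and 47.8 against 6.97 CPM, and Tyms, thymidylate synthase, at 63.0 against 19.7 CPM and 49.8 against 14.9 CPM. Pclaf, a partner of the replication clamp, and Tuba1a, an alpha tubulin, were 3.26-fold to 4.67-fold higher.

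Plk1 was detected in 6 of 43 deficient-labelled and 36 of 216 WT-labelled members, against 27 of 666 and 34 of 802 other cells. The median cell had 9.79 per 10000 of G2/M list UMIs in deficient-labelled members against 7.59 in others, and 8.53 against 7.61 in the WT-labelled library. The share of cells with many differed further. At least 30 per 10000 were found in 7 of 43 deficient-labelled members (16.3%, 6.81 to 30.7) against 36 of 666 others (5.41%, 3.81 to 7.41), and in 39 of 216 WT-labelled members (18.1%, 13.2 to 23.8) against 46 of 802 others (5.74%, 4.23 to 7.58). Phase calls on cells thinned to 5000 UMIs put 14.0% (5.30 to 27.9) of deficient-labelled members in G2/M against 5.04% (3.49 to 7.003) of others, and 17.9% (13.0 to 23.8) of WT-labelled members against 7.70% (5.94 to 9.78). In the cells without the 4 cytokines Il17a, Il17f, Ifng and Il2, at least 30 per 10000 were found in 9 of 77 deficient-labelled (11.7%, 5.49 to 21.03) and 5 of 100 WT-labelled cells (5%, 1.64 to 11.3), and G2/M calls were 11.8% (5.56 to 21.3) and 11.3% (5.80 to 19.4), intervals that overlap the members' except for the WT-labelled share at 30. S-phase calls were 4.65% against 3.36% and 11.3% against 3.41%. A sum weighs each cell by its RNA content; as a mean of per-cell CPM, 10 of 22 tested G2/M genes were higher. Among cells called G1 alone 0 of 10 were, but those calls use the same lists.

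**Figure D3:**
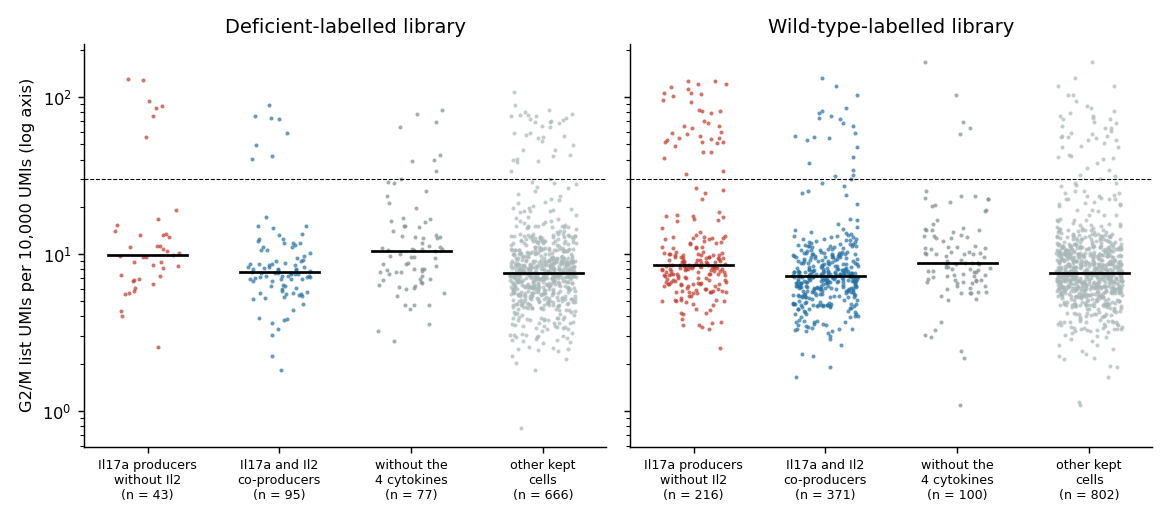
Each point is 1 cell, with G2/M list UMIs per 10,000 UMIs on a log axis, by cell set in the deficient-labelled (left) and WT-labelled (right) library; bars are medians and the dashed line marks 30. Medians lie between 7 and 11 in all sets, and 16.3% and 18.1% of members exceed 30, against 5.41% and 5.74% of the other kept cells.

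Promoters of these genes share short words that the rule did not use. Of the 22 higher G2/M list genes, 21 had a window in the RefSeq table (GRCm38.p6, 250 bases before the gene start); 10 (47.6%) held TTTGAA, the core of the cell-cycle homology region read by the DREAM and B-MYB complexes, and 17 (81.0%) held CCAAT, the NF-Y box. Over all 4353 tested genes with a window the shares were 9.92% and 35.7%. Of 10 list genes that were tested and not higher, 5 and 8 held the same words, shares close to those of the higher ones. Both strands were searched, and the words do not overlap in the windows shown. The windows of Ccnb2 (chr9:70421555-70421804, minus strand) and Plk1 (chr7:122159185-122159434, plus strand), 2 of the genes with the largest ratios, are given with matches in capitals.
Ccnb2: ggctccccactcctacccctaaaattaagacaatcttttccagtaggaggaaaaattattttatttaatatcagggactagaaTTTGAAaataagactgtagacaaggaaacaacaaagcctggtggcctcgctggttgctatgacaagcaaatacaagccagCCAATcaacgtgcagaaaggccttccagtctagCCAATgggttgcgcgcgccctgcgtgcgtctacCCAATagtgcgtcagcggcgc
Plk1: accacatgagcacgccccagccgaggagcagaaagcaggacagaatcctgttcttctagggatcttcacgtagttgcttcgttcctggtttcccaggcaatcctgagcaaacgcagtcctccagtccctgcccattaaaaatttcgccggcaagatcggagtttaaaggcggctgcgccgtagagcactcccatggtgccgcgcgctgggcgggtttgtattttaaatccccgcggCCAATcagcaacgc
The Ccnb2 window holds 1 TTTGAA and 3 CCAAT matches, and the Plk1 window 0 and 1.

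Type 17 genes outside the interleukins were mixed. Ccr6, the receptor for CCL20 that marks type 17 cells, was at 86.3 CPM in deficient-labelled members against 11.4 CPM in other kept cells and at 97.3 against 35.7 CPM in the WT-labelled library, 7.61-fold (5.91 to 9.74) and 2.72-fold (2.44 to 3.04) higher. At 5000 UMIs per cell it was found in 11 of 43 deficient-labelled members (25.6%; 51.2% unthinned) and 27 of 655 others (4.12%; 9.16% unthinned), and in 61 of 212 WT-labelled members (28.8%; 56.0% unthinned) and 94 of 792 others (11.9%; 22.1% unthinned). Maf, encoding c-MAF, which drives Il10 and other genes in type 17 cells, was at 36.3 against 11.6 CPM and 70.2 against 10.96 CPM. Tmem176a and Tmem176b, ion channel genes high in type 17 cells, and Ramp1, part of the receptor for the neuropeptide CGRP, were higher too, and Nfkbiz, which encodes a nuclear IκB protein needed for interleukin-17, was lower (32.8 against 94.6 CPM, and 49.5 against 104 CPM). In all, 5 of 20 tested genes of the list of 32 were higher and 1 lower, with medians of 0.65 and 0.22. Il17f was at 7696 against 3675 CPM and 8587 against 8129 CPM.

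The lineage factors Rora (371 against 241 CPM, and 335 against 283 CPM), Ahr (112 against 120.4 CPM, and 61.6 against 71.6 CPM), Batf (120.0 against 117 CPM, and 148 against 147 CPM) and Irf4 (335 against 471 CPM, and 277 against 360 CPM) stayed within 2-fold. Gata3, the type 2 factor, also did (37.1 against 43.3 CPM, and 10.2 against 12.9 CPM). Il23r, the receptor subunit for interleukin-23, was at 41.4 against 9.50 CPM in the deficient-labelled library but at 6.16 against 3.99 CPM in the WT-labelled one. Il22 had 16 UMIs in 2 deficient-labelled members and 1 UMI in WT-labelled members, and Il21 was at 40.6 against 14.2 CPM and 25.6 against 40.7 CPM, in opposite directions.

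Few genes of the early response and NF-κB lists passed, and those that did were lower. Cd69, an activation receptor that PMA raises, was the 1 of 30 tested early response genes to pass, at 225 against 644 CPM and 242 against 556 CPM, and 0 were higher (medians -0.45 and -0.40). In the NF-κB list, 2 of 19 tested genes were lower, Nfkbiz and the feedback inhibitor gene Tnfaip3 (69.9 against 142 CPM, and 52.6 against 119 CPM), and 0 higher, with medians of -0.57 and -0.52. In the NFAT and calcium list 0 of 18 tested genes were higher or lower, with medians of 0.14 and 0.09, close to those of all genes. With 1.94% of all tested genes called higher and 0.406% lower, 0 of 18 is near the share over all genes. Orai1, which forms the pore for store-operated calcium entry, was at 289 against 291 CPM in the deficient-labelled and 81.9 against 118 CPM in the WT-labelled library. Of 14 tested AP-1 family genes, Batf3, a BATF family factor, was higher (31.9 against 12.4 CPM, and 139.9 against 55.0 CPM), and 0 were lower. Among cells called G1 the deficient-labelled Batf3 log2 ratio was -0.82, at 5.47 against 10.4 CPM.

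Outside the lists, the lower genes with the widest ratios were Fgf13, a fibroblast growth factor homologue (9.50 against 139 CPM, and 24.8 against 66.8 CPM), Cdk5r1, an activator of the kinase CDK5 (9.50 against 39.6 CPM, and 22.2 against 69.7 CPM), the myosin gene Myo1h, and Mctp2, a membrane protein with C2 domains (14.7 against 47.8 CPM, and 42.99 against 108 CPM). Among cells called G1, 14 of the 22 lower genes were lower again, Ifng and Il2 of the rule, Gzmb, Il10, Il3, Fgf13 and the 5 chemokine genes among them, and 11 of the 105 higher genes were higher again, Ccr6, Maf, Lta and Tuba1a among them.

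By the rule, the Il17a and Il2 co-producers differ from the members in Il2 alone. Of 5415 genes tested, 83 were higher in members (1.53%) and 20 lower (0.369%); with TMM factors the counts were 50 and 25. Tgfbr3, the TGF-β co-receptor betaglycan, was at 28.5 CPM in deficient-labelled members against 5.75 CPM in co-producers and at 64.9 against 9.36 CPM in the WT-labelled library, 4.96-fold (2.58 to 10.03) and 6.94-fold (5.47 to 8.89) higher. Ikzf4, an Ikaros family repressor, was at 30.2 against 7.80 CPM and 28.3 against 6.62 CPM, and Batf3 at 31.9 against 9.03 CPM and 139.9 against 36.9 CPM. The Batf3 difference of the deficient-labelled library rested on 6 members with a UMI, and among cells called G1 its log2 ratio there was -0.26. Plk1, Cdca3 and Ccnb2 were higher as well, and 16 of 33 tested G2/M list genes. Icos, a costimulatory receptor, was at 167 against 74.3 CPM and 273 against 116 CPM. Ctla4, an inhibitory receptor, was at 135 against 48.8 CPM and 109 against 45.9 CPM.

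Lower than in co-producers were Tnf (170.1 against 691 CPM, and 157 against 434 CPM), Ccl4 (4996 against 17513 CPM, and 1868 against 7497 CPM), Cd40lg (12.1 against 62.0 CPM, with 78.6% of the member UMIs from 1 cell, and 4.21 against 62.8 CPM), Areg, the growth factor amphiregulin (38.0 against 163 CPM, and 4.66 against 22.95 CPM), Timp1, an inhibitor of matrix proteases (19.9 against 84.5 CPM, and 4.06 against 28.2 CPM), Ccl5 and Il3. Il3 was carried by only 4 deficient-labelled and 9 WT-labelled co-producers. Among cells called G1, the deficient-labelled Timp1 log2 ratio against co-producers was 0.010. In the cytokine and chemokine list, 7 of 20 tested genes were lower and 1, Lta, higher, with medians of -0.83 and -1.12. Xcl1, Ccl1 and Il10, lower than in all other kept cells, were not among the genes called lower than in co-producers. Neither was Gzmb: of 14 tested genes of the type 1 and cytotoxic list, only Slamf7 was lower. Among cells called G1, the Gzmb log2 ratio against co-producers was -1.11 in the deficient-labelled and 3.13 in the WT-labelled library. Il17f, not used by the rule, was 1.43-fold lower in members of both libraries (1.40 to 1.46, and 1.42 to 1.44), at 7696 against 10998 CPM and 8587 against 12280 CPM. Cells of each set that reached 10 Ccl4 transcripts per 10000 made up 41.9% of deficient-labelled members (27.0 to 57.9) against 72.6% of co-producers (62.5 to 81.3), and 31.0% of WT-labelled members (24.9 to 37.6) against 66.3% (61.2 to 71.1). For Tnf the shares were 0 of 43 against 17 of 95 cells and 2 of 216 against 27 of 371.

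Split by Il2 level, Il17a producers with Ifng under 10 differed step by step in several genes. For this, 5 steps were used, under 2, 2 to 10, 10 to 50, 50 to 200 and at least 200 Il2 UMIs per 10000, holding 25, 18, 35, 42 and 18 deficient-labelled cells and 138, 78, 117, 156 and 98 WT-labelled cells. Ccl4 stood at 2820 CPM in the lowest step and 20582 CPM in the highest of the deficient-labelled library, and at 1640 and 12835 CPM in the WT-labelled one, higher at each step. Nfkbid, encoding an inhibitor of NF-κB named here after its values were seen, stood at 137 and 505 CPM and at 138 and 494 CPM, also higher at each step. Tnf was at 210 and 1909 CPM and at 139 and 650.3 CPM, with 109 CPM in the second deficient-labelled step. Ccr6 ran the other way, at 106 and 4.39 CPM and at 109.8 and 29.0 CPM, and so did Batf3 in the WT-labelled library (177 and 12.1 CPM). Maf was at 75.5 and 58.4 CPM in the lower pair of WT-labelled steps and at 4.67 to 7.74 CPM in the other 3. The G2/M list stood at 3709 CPM in the lowest and 820.4 CPM in the highest WT-labelled step, lower at each one, and stood at 4464 and 1949 CPM in the deficient-labelled library. Median depth was between 19360 and 24210 UMIs in every step. The deficient-labelled steps rest on as few as 18 cells, and their intervals leave out the spread between cells.

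**Figure D4:**
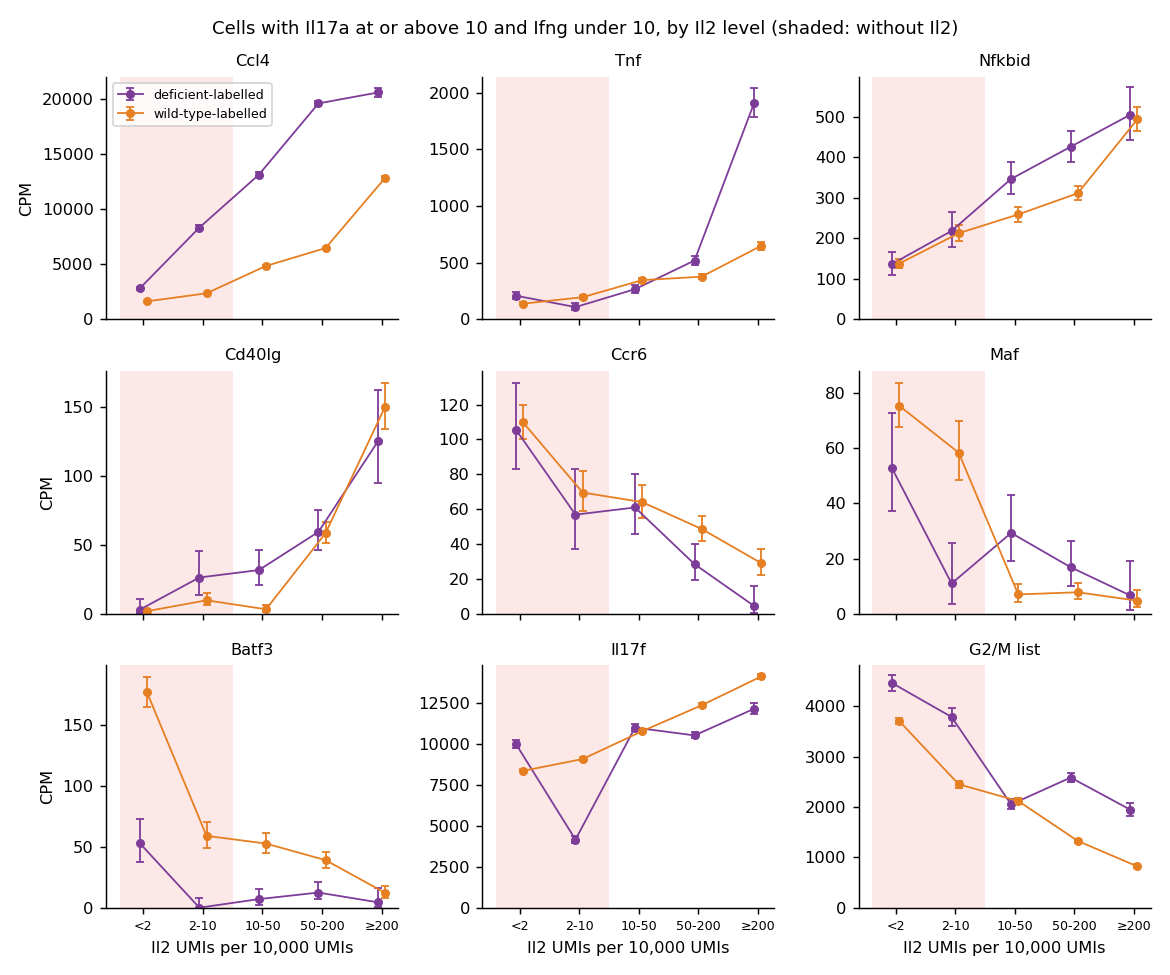
CPM of 8 genes and of the G2/M list (vertical axes, from 0) in cells with Il17a at or above 10 and Ifng under 10, by Il2 level per 10,000 UMIs, in the deficient-labelled (purple) and WT-labelled (orange) library. Points are sums over the cells of a step with 95% Poisson intervals for counting error, and the shaded steps hold the members; Ccl4 and Nfkbid are higher at each step of Il2, and Ccr6 is at its lowest in the last.

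Against cells that lacked Il17a, Il17f, Ifng and Il2, members had more mRNA of some type 17 genes and less of some genes of naive cells. These cells were shallower, with medians of 15118 and 13567 UMIs. Of 5627 genes tested, 53 were higher in members (0.942%) and 51 lower (0.906%). Il17f is part of that definition and is left out here. Il1r2, the decoy receptor for interleukin-1, was at 517 CPM in deficient-labelled members against 23.6 CPM and at 93.0 against 6.96 CPM in the WT-labelled library, 21.95-fold (15.5 to 32.0) and 13.4-fold (7.60 to 26.0) higher. Zc3h12c, a Regnase family RNA-binding protein, was at 77.7 against 13.2 CPM and 24.8 against 2.32 CPM, and Olfm2 at 24.2 against 4.16 CPM and 24.4 against 4.06 CPM. Ccr6 was 24.9-fold (10.3 to 78.4) and 3.50-fold (2.61 to 4.79) higher. Sorcs1 rested on 2 deficient-labelled and 19 WT-labelled members. In the cytokine and chemokine list, 3 of 16 tested genes were higher (Lta, Il21 and Tnfsf11) and 0 lower. Its medians were 0.55 and 0.17, and its sums 21374 against 31754 CPM and 8202 against 6441 CPM. Of 32 tested genes of the early response list, 5 were lower (Nr4a1, Egr1, Cd69, Btg2 and Zfp36) and 1 higher (Tnfrsf4). Tcf7, encoding TCF-1, a factor of naive and memory T cells, was at 40.6 against 155 CPM and 44.8 against 141 CPM. Fos, an AP-1 subunit, was at 6.91 against 221 CPM and 25.7 against 179 CPM, Fosb at 13.0 against 112 CPM and 11.3 against 59.7 CPM, and Zfp36, which promotes decay of cytokine mRNA, at 13.8 against 60.3 CPM and 9.17 against 45.2 CPM. Of the 25 genes of the naive and memory list, 17 were tested, 0 were higher and 5 lower (Tcf7, Ccr7, Klf2 and Id3 among them), with medians of -0.71 and -0.40 against -0.02 and -0.01 over all genes. The deficient-labelled members were also lower in Gzmb, at 4.32 against 477 CPM; in WT-labelled cells, at 37.4 against 134 CPM, the log2 ratio of -1.82 became 0.88 among cells called G1, and 74.6% of the UMIs of the WT-labelled cells without the 4 cytokines came from 1 cell.

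Between the libraries, members differed in many genes while Il17a and Il17f were close. Of 6053 genes tested, 268 were at least 2-fold higher in deficient-labelled members (4.43%) and 163 at least 2-fold lower (2.69%), with a median log2 ratio of 0.09; with TMM factors, 193 were higher and 201 lower. Il17a was at 12668 CPM in deficient-labelled and 12803 CPM in WT-labelled members, which the rule's minimum holds up in both, whereas the other kept cells had 2943 and 10454 CPM. Il17f, which the rule did not use, was at 7696 and 8587 CPM (1.12-fold lower, 1.09 to 1.14), and Ccr6 at 86.3 and 97.3 CPM (1.13-fold lower, 0.911 to 1.40). Il17f went with Il17a across members, so choosing cells on Il17a bears on Il17f as well. In the other kept cells Il17f and Ccr6 stood further apart, Il17f at 3675 and 8129 CPM and Ccr6 at 11.4 and 35.7 CPM. Those sets differ in make-up, with 95 and 371 Il17a and Il2 co-producers among 666 and 802 cells. Among members, Tnf (170.1 and 157 CPM), Rora (371 and 335 CPM) and Batf (120.0 and 148 CPM) were within 2-fold too. The type 17 list had 5 of 25 tested genes higher and 3 lower, with a median of 0.12.

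**Figure D5:**
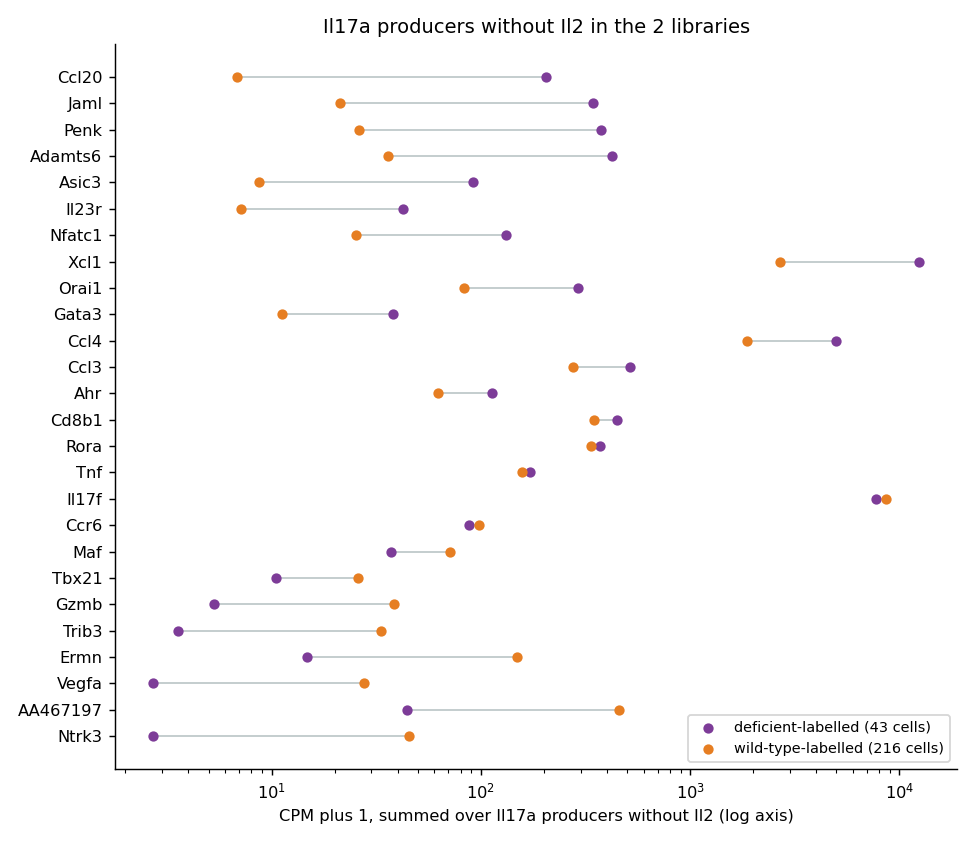
CPM plus 1 on a log axis for 26 named genes, summed over the 43 deficient-labelled members (purple) and the 216 WT-labelled members (orange), with the highest ratio at the top. Il17f, Ccr6, Tnf and Rora lie close together, while Ccl20, Jaml, Penk and Adamts6 lie to the right in deficient-labelled members and Ntrk3, AA467197, Vegfa, Ermn and Trib3 to the left.

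Among the higher genes, Ccl20, the ligand of CCR6, was at 204 CPM in deficient-labelled and 5.86 CPM in WT-labelled members, 34.8-fold higher (24.7 to 50.1), but in only 7 and 8 cells. Il23r, at 41.4 and 6.16 CPM (6.72-fold, 4.34 to 10.5), was found in 7 and 17 cells. Broader differences were those of Jaml, an adhesion receptor of T cells (341 and 20.3 CPM, in 29 of 43 and 50 of 216 cells), Adamts6, a secreted metalloprotease (422 and 34.9 CPM, in 36 and 61 cells), and Penk, the enkephalin precursor (376 and 25.3 CPM, in 15 and 16 cells). Other kept cells called G1 differed in the same direction. They had Jaml at 130.0 and 24.7 CPM, Adamts6 at 197 and 54.3 CPM, and Penk at 78.3 and 9.29 CPM. Kcnk10, Mpzl2, Myo1e and Asic3 were 11.8-fold to 40.2-fold higher, Shtn1 was 373-fold higher against 1 WT-labelled UMI (64.7 to 14970), and Lsamp and C77080 rested on 1 cell for 80.0% and 95.8% of their deficient-labelled UMIs. Ccl1 was at 110.5 and 2.71 CPM (8.20 and 2.22 CPM among cells called G1), Xcl1 at 12434 and 2689 CPM (4.62-fold, 4.52 to 4.73) and Ccl4 at 4996 and 1868 CPM. The other kept cells also had more of these 3 chemokine genes in the deficient-labelled library, with Xcl1 at 30229 and 7285 CPM and Ccl4 at 37941 and 8143 CPM. Of 12 tested inhibitory receptor genes, 7 were higher and 1 lower (median 1.25), with Cd160 at 536 and 74.6 CPM and Havcr2, encoding TIM-3, at 38.0 and 13.7 CPM. That list took 1283 and 561 CPM in members, and 1294 and 714 CPM in the other kept cells. Gata3 was at 37.1 and 10.2 CPM, and Orai1 at 289 and 81.9 CPM (3.53-fold, 3.07 to 4.05).

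Lower in deficient-labelled members were AA467197, the mouse homologue of NMES1, at 43.2 against 458 CPM (10.6-fold, 8.03 to 14.3), Ermn, an ezrin-related cytoskeletal gene, at 13.8 against 147 CPM, Ntrk3, a neurotrophin receptor, at 1.73 against 44.3 CPM, and Vegfa, the endothelial growth factor, at 1.73 against 26.6 CPM. Ntrk3 and Vegfa had 2 UMIs each in deficient-labelled members, which puts their ratios at 25.7-fold (7.05 to 213) and 15.4-fold (4.20 to 128) lower. Other kept cells called G1 had AA467197 at 89.6 against 412 CPM, Ermn at 10.8 against 87.9 CPM and Ntrk3 at 2.995 against 31.9 CPM. Genes of amino acid supply and the ATF4 stress response made up the most even group: 10 of 16 tested were lower and 0 higher, with a median of -1.10. That list took 1449 and 2567 CPM in members. In the other kept cells it took 1789 and 2494 CPM, so the direction was not particular to members. Trib3, a pseudokinase induced by ATF4, was at 2.59 against 32.3 CPM. The serine synthesis genes Psat1 and Psph were at 59.6 against 125 CPM and 42.3 against 112 CPM. Outside that list, Pck2, the mitochondrial PEPCK, was at 0.863 against 22.7 CPM. The cholesterol and lipid list had 4 of 18 tested genes lower and 0 higher, with a median of -0.62. It took 780 and 1171 CPM in members, and 705 and 1380 CPM in the other kept cells. Batf3 was at 31.9 against 139.9 CPM and Nfatc2 at 12.1 against 36.5 CPM. Several low values rest on single WT-labelled cells: 1 cell gave 90.1% of the Csf2, 96.0% of the Gzmc, 60.8% of the Il9, 59.6% of the Trp53cor1 and 55.1% of the Ifitm1 UMIs of that sum. Trp53cor1 had 0 UMIs in deficient-labelled members.

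Members also varied among themselves. Il17a and Il17f, neighbours on chromosome 1, went together across cells with a Spearman correlation of 0.36 over 43 deficient-labelled and 0.41 over 216 WT-labelled members, values that share each cell's total. Il17a with Ccl4 gave -0.37 and -0.10, with Ccr6 0.21 and 0.20, and with total UMIs 0.06 and 0.18. At 10 transcripts per 10000 or more, Xcl1 was found in 31 of 43 deficient-labelled members (72.1%, 56.3 to 84.7) and 54 of 216 WT-labelled members (25%, 19.4 to 31.3). Ccl3 reached that level in 6 and 14 of them, Ccl20 in 4 and 0, Il9 in 0 and 5, Il10 in 0 and 2, Csf2 in 0 and 1, and Il21 and Il22 in none. Among the genes counted in this way, cells at that level were thus most common for Il17f, Xcl1 and Ccl4. Further cytokine genes, such as Lta, were not counted at that level.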

How the data were processed

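Gene UMI counts per cell barcode and multiplexing tag counts were deposited by the authors, made with Cell Ranger 7.0.0, per the file headers, on the mm10 genome, per the submitters' processing notes. They are raw counts, not normalized; of 32285 gene rows, 99.6% matched an identifier of GENCODE M21. Barcodes passed with 500 or more genes detected and mitochondrial UMIs of 10% or less, 709 of 754 deficient-labelled and 1018 of 1149 WT-labelled, with 750 to 149968 and 733 to 115095 UMIs per cell. Doublets (Scrublet in scanpy 1.11.5, expected 5%) were kept. UMIs were summed per library and cell set and divided by the set's total to give CPM. With 1 library per genotype no test was run: a gene was called when 1 of the sums reached 20 CPM and the ratio, with a pseudocount of 1 CPM, reached 2-fold, in both libraries alike where each has both sets. Shares carry exact Clopper-Pearson intervals and ratios conditional binomial ones, at 95%, for counting error only. Phases were called on cells thinned to 5000 UMIs, which leaves out 11 deficient-labelled and 14 WT-labelled cells. Named genes, 228 in all, were the genes of the rule, a fixed set and the largest ratios past the size rule in each comparison. To these came the highest and lowest tested genes of each list, past the size rule or not, out of 34 gene lists without the marker lists. Some markers and genes passing within a list are named as well. The members and lists were chosen with earlier results of these data known. On simulated counts for members against others, 0 of 50 genes changed 1.5-fold, 46 of 50 changed 2.5-fold and 50 of 50 changed 3-fold were called, with 0 of 4829 unchanged genes. For members between the libraries the counts were 0, 48 and 50 of 50, with 7 of 5496. The simulated counts were Poisson draws that hold no spread between cells, and the changed genes were taken from the higher expressed ones. They therefore do not give the rate of false or missed calls in the real sums, some of which rest on single cells. Python 3.11.15, NumPy 2.4.6, SciPy 1.17.1, pandas 2.3.3, matplotlib 3.10.9, R 4.3.3 and edgeR 4.0.16 (TMM factors only) were used. Alternatives covered the rule's limits, filters on cells and genes, scaling, pseudocount, cell phase and, added after seeing the data, leaving out the top cell of each gene. Some genes are not reported here.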

Additional observations from a re-analysis of the deposited data

Results flagged for a closer look

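Csf2, encoding the growth factor GM-CSF, differed in direction between the libraries: its log2 ratio of members over other kept cells was -3.98 in the deficient-labelled and 1.72 in the WT-labelled library. Deficient-labelled members held 1 UMI, and 1 cell gave 90.1% of the WT-labelled members' UMIs. Gzmc, a granzyme gene, did likewise, with log2 ratios of -4.02 and 1.10, and 1 cell gave 96.0% of the WT-labelled members' UMIs. Neither difference between the libraries was tested, and these are the 2 of 5421 genes that passed in opposite directions.

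Barcodes left out for more than 10% mitochondrial UMIs also met the rule, 9 of 41 in the deficient-labelled (21.95%, 10.6 to 37.6) and 23 of 128 in the WT-labelled library (18.0%, 11.7 to 25.7). The multiplexing tags, which no comparison used, were dominated by 1 tag per library, with 91.9% of tag counts in the deficient-labelled and 87.7% in the WT-labelled library, a different tag in each.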

How the results depend on the processing

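No paired analysis was possible because each genotype has 1 library. The share of members in the WT-labelled library was 17.6% with Ifng and Il2 limits of 5, 25.2% with limits of 20 and 17.6% among cells called G1. Genes higher than in other kept cells numbered 23 among G1 cells, 63 with TMM, 66 with median ratio factors, 42 as means of per-cell CPM, 298 with no minimum and 42 with a minimum of 50 CPM. Lower genes numbered 39, 36, 45 and 14 with TMM, median ratio, no minimum and 50 CPM. Of the 105 higher genes, 36 were called again by per-cell means and 63 with TMM. Against co-producers, higher genes numbered 43 (G1), 50 (TMM), 48 (median ratio), 278 (no minimum) and 35 (50 CPM), and lower genes 13 (G1), 12 (per-cell means) and 43 (no minimum). Against cells without the 4 cytokines, higher genes numbered 34 (Il17a minimum of 20), 28 (G1), 185 (no minimum) and 19 (50 CPM), and lower genes 33 (mitochondrial limit of 5%), 94 (per-cell means), 251 (no minimum) and 23 (50 CPM). Between the libraries, higher genes numbered 847 and 145, and lower genes 999 and 69, with no minimum and 50 CPM. G2/M list genes higher than in others numbered 0 (G1), 10 (per-cell means), 36 (no minimum) and 9 (50 CPM). Without the top cell of each gene and sum, an alternative chosen after seeing the data, 85 genes were higher and 23 lower, and 22 of 32 tested G2/M genes were higher.

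Of the single-gene values under the alternatives, 2823 moved little, 361 moved and 20 changed sign. The 2823 include 178 values with no minimum and 178 with a minimum of 50 CPM. Those could not move, because a minimum sets which genes are tested and leaves each ratio as it is. Of the sign changes, Csf2 in the WT-labelled library was at -1.23 against others without the top cell. The other sign changes were among G1 cells. Against others, the deficient-labelled log2 ratios were -1.36 (Cdca3), -0.12 (Ccnb2), -0.84 (Nusap1), -1.05 (Cdk1), -0.59 (Cenpf), -1.10 (Ect2) and -0.85 (Pclaf), and the WT-labelled ones -1.93 (Csf2), -0.59 (Nusap1), -0.50 (Cenpe), -0.16 (Cdk1), -0.019 (Rrm2), -0.33 (Cenpf) and -0.11 (Ect2). Not counted in these, G1 cells also gave ratios against others of -0.82 for deficient-labelled Batf3 and -2.93 for WT-labelled Gzmc. Against co-producers, deficient-labelled Cdca3 was at -1.09, Batf3 at -0.26 and Timp1 at 0.010. Against cells without the 4 cytokines, WT-labelled Gzmb was at 0.88. Between the libraries, C77080 was at -0.35. G1 calls use the cycle genes themselves, and a stricter or absent minimum changes how many genes are counted; beyond that the cause was not tested. Depth limits the deficient-labelled values most, where 1 UMI is worth 0.863 CPM.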

Other observations

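Several groups stayed within the 2-fold limit. All 30 genes of the nuclear-encoded respiratory chain list were tested, and 0 were higher or lower in members than in other kept cells, with median log2 ratios of 0.34 and 0.33 and sums of 9954 against 7978 CPM in the deficient-labelled and 9653 against 8084 CPM in the WT-labelled library. Over all 5421 tested genes the medians were 0.10 and 0.05, and 1.94% were called higher and 0.406% lower. A count of 0 in a list of this size is therefore near the share over all genes. Glycolysis and hypoxia genes had 0 of 21 called (medians 0.13 and 0.28), MHC class I genes 0 of 16 (0.42 and 0.17) and T-cell receptor and CD8 genes 0 of 19 (0.35 and 0.02). Cd8a stood at 308 against 147 CPM and 177 against 102 CPM. In the costimulation list 1 of 15 genes was lower, Cd40lg, and in the survival list 1 of 16 was higher, Birc5, which the G2/M list also holds. The 10 tested genes of the tissue-handling stress list had medians of -0.04 and -0.05.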
